A study of Mus musculus with 44 samples.

Results

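The 6 joining genes of the mouse TCRα locus described here, Traj11, Traj9, Traj6, Traj5, Traj4 and Traj2, lie at the downstream end of the J cluster, next to the constant gene Trac. A CDR3 was counted to a gene when it ended in the gene's fixed germline residues, SGYNKLTF for Traj11, MGYKLTF for Traj9, GGNYKPTF for Traj6, QVVGQLTF for Traj5, GSFNKLTF for Traj4 and GGLSGKLTF for Traj2, so the assignment of a CDR3 rests on these letters alone. They are 6 of the 43 Traj genes with CDR3s in the data. They held 2983 of 35230 distinct TRA CDR3s (8.47%) and 115200 of 1841575 TRA reads (6.26%). The samples are 44 subcutaneous B16F10 melanomas, a mouse melanoma line, grown in mice of the strain C57BL/6 by the labels (C57BL/6J in the study's methods), genotype WT, and taken on day 12, with 1 library per tumour. Of these, 15 came from mice given AC484, an inhibitor of the phosphatases PTPN2 and PTPN1, 15 from mice given aPD-1, an antibody against the checkpoint receptor PD-1, and 14 from the group labelled Vehicle, which the study's methods call untreated. Receptor transcripts of both chains were captured from bulk tumour RNA and sequenced, and each value is the number of reads of 1 amino acid CDR3 in 1 tumour. The table holds CDR3s alone, so markers of T cells or of other cells in the tissue were not analysed here, and in bulk tissue fewer cells carrying a receptor and less receptor RNA per cell cannot be told apart.

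The CDR3 is the loop of a T cell receptor chain that lies over the presented peptide. In the TCRα chain its first residues come from a V gene, its last residues from a J gene, and those between from trimming and addition of bases at the junction. The RAG recombinase cuts beside short recombination signals and deletes the DNA between the V and the J gene it joins, so that a second round on the same allele can only use a V gene further upstream and a J gene further downstream. The first rounds in the thymus favour J genes at the upstream end of the cluster, and genes near Trac are reached in later rounds.

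The germline sequence of each gene shows the bases that encode its fixed ending, while CDR3s were chosen by amino acids alone. The J exons below are from GRCm38, the same assembly as the submitters' mm10, on the plus strand of chromosome 14, with the codons of the fixed ending in capitals.
Traj11, chr14:54207139-54207197: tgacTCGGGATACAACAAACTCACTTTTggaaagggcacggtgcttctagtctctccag
Traj9, chr14:54209393-54209450: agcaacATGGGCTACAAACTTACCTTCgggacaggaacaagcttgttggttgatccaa
Traj6, chr14:54212688-54212749: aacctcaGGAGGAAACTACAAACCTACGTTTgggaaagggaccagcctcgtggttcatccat
Traj5, chr14:54213777-54213838: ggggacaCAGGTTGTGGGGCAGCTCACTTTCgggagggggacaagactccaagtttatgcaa
Traj4, chr14:54216291-54216353: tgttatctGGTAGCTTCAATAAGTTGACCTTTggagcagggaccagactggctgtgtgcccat
Traj2, chr14:54217836-54217901: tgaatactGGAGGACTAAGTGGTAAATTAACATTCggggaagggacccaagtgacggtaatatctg
The genes lie from 13.3 kb (Traj11) to 2.62 kb (Traj2) upstream of Trac, which starts at position 54220521. The germline CDR3 ending has 9 residues in Traj11 and Traj9, 10 in Traj6, Traj5 and Traj4, and 11 in Traj2. The fixed ending therefore left 1 germline residue free to vary in Traj11 and 2 in each of the other 5 genes. Of the CDR3s whose longest match of at least 4 residues was to one of these genes, 302 had a shorter ending and were left out, 139 of them at Traj9.

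The 28 bases before each J exon hold its recombination signal, shown here because every CDR3 counted below was joined at it. The capitals mark the 9 bases at the place of the nonamer and, after a spacer of 12 bases, the 7 bases at the place of the heptamer that borders the exon.
Traj11, chr14:54207111-54207138: CATTTTTGTggagaggtttgcTGCTGTG
Traj9, chr14:54209365-54209392: CCATTTTGTcacaggacaaatCACTGTG
Traj6, chr14:54212660-54212687: GGTTTCATCaaaggctttcctCACTGTG
Traj5, chr14:54213749-54213776: GGTATTTGTactgtgctgtacTAGGGTG
Traj4, chr14:54216263-54216290: AATTCTTGTaaagcacctttcTACTGTG
Traj2, chr14:54217808-54217835: GGCTTCTGTaaaggtgtcaccTGCAGTG
The heptamer letters CACTGTG stood in full beside Traj9 and Traj6, as beside 13 of all 46 annotated Traj genes (28.3%). Traj4 had 6 of the 7 letters, Traj11 had 5, and Traj5 and Traj2 had 4. The last 3 heptamer letters, GTG, were present at all 6 genes and at 43 of 46. The nonamer letters GGTTTTTGT were complete at 2 of 46 genes (4.35%) and at none of these 6, where 5 (Traj6) to 8 (Traj5) letters matched and the median over all genes was 7. Only these positions were compared, on the plus strand alone.

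The number of TRA reads differed between groups before any J gene was considered. Total reads per tumour had medians of 249920 with AC484, 242260 with aPD-1 and 70012 with Vehicle. The TRA percentage of a tumour's reads had medians of 31.7, 8.12 and 18.1% in the same order. TRA reads per tumour ranged from 18508 to 315679 (median 67192) with AC484, from 10432 to 108156 (median 21959) with aPD-1 and from 1466 to 24129 (median 8762.5) with Vehicle. Distinct TRA CDR3s per tumour had medians of 1931, 1204 and 357.5 in the same order, and the tumour with the fewest, Vehicle 5, had 72. Libraries were made with 4 index primer sets. Set 1 held 12 Vehicle tumours, with TRA at 16.6% of their reads, and set 4 held 8 AC484 tumours, with TRA at 28.8%. Set 2 held 10 aPD-1 and 2 Vehicle tumours, with TRA at 6.53% and 4.75% of their reads, and set 3 held 7 AC484 and 5 aPD-1 tumours, with TRA at 32.2% and 31.2%. AC484 and Vehicle tumours share no set, so between them treatment and set can be told apart only through the aPD-1 tumours of sets 2 and 3. The reads carry no molecular identifiers, so the limits given for genes without reads cover counting error only. The intervals of fold changes come from a fit over all tumours and include the spread between them.

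The downstream genes were not used alike. Traj9 was the most diverse of the 6 with 907 distinct CDR3s, rank 16 of 43 Traj genes, followed by Traj6 and Traj4 with 578 each, Traj11 with 409, Traj2 with 266 and Traj5 with 245. Traj5 and Traj2 had the fewest distinct CDR3s of all 43 genes. The 6 genes averaged 497 distinct CDR3s per gene, against 876 for the other measured genes of this end, Traj12 and Traj7, 935 for the 21 central genes (Traj39 to Traj13) and 719 for the 14 upstream genes (Traj58 to Traj40). The endings of the 6 genes are longer than the minimum used for the others. With the longest match Traj9 had 1046, Traj6 627, Traj4 590, Traj11 464, Traj5 283 and Traj2 275. Over the 43 genes the share of distinct CDR3s had little relation to the distance from Trac (Pearson r = -0.16, Spearman rho = -0.12, across genes, which share libraries and are not independent).

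**Figure D1:**
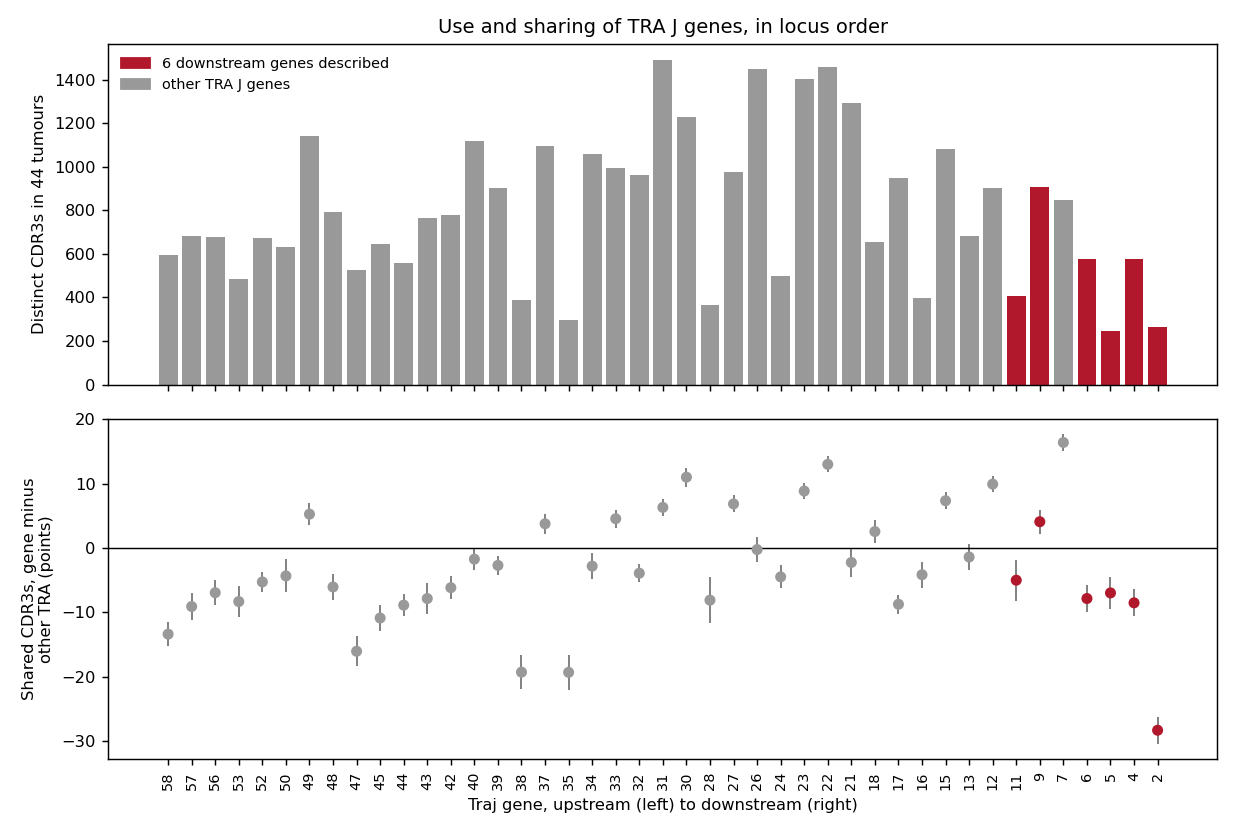
Top, distinct CDR3s per Traj gene over 44 tumours, in locus order from upstream to downstream. Bottom, the percent of a gene's distinct CDR3s found in another tumour minus that of all other TRA CDR3s of the same tumour, mean over tumours with SE. Red marks the 6 downstream genes, where Traj9 has 907 CDR3s and lies above 0, and Traj2 lies lowest of all genes at -28.3 points.

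As a share of a tumour's distinct TRA CDR3s, the order was Traj9 (2.56% ± 0.818, SD, n = 44), Traj4 (1.48% ± 0.411), Traj6 (1.40% ± 0.497), Traj11 (1.07% ± 0.431), Traj5 (0.633% ± 0.426) and Traj2 (0.532% ± 0.241). Traj9 exceeded Traj4 in 38 of 44 tumours, by 1.08 ± 0.964 points. Traj4 exceeded Traj6 in 23 tumours and Traj5 exceeded Traj2 in 21, with mean differences of 0.0774 ± 0.665 and 0.102 ± 0.570 points, so neither pair was separated beyond its spread. Traj6 exceeded Traj11 in 31 tumours, by 0.329 ± 0.554 points, and Traj11 exceeded Traj5 in 38, by 0.438 ± 0.699 points. Both of these mean differences were also smaller than their spread. The ± is the SD of the difference over tumours and not an error of its mean. The order of the genes was not tested.

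No gene of the 6 passed the test for a change in its share of distinct CDR3s with either treatment. Their summed share was 6.61 to 8.75% with AC484 (median 7.63%), 6.64 to 9.42% with aPD-1 (median 7.77%) and 6.31 to 9.34% with Vehicle (median 7.82%). The 3 groups overlapped almost entirely. Single genes scattered more widely in Vehicle tumours, which held fewer CDR3s, and 1 to 3 Vehicle tumours lacked Traj11, Traj6, Traj5 or Traj2.

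Traj9 took 2.09% of distinct TRA CDR3s in the lowest AC484 tumour, 2.65% at the median and 3.20% in the highest, against 1.28, 2.78 and 3.26% with aPD-1 and 0.485, 2.32 and 5.42% with Vehicle. Traj4 took 0.825, 1.41 and 1.97% with AC484, against 0.927, 1.425 and 2.11% with aPD-1 and 0.565, 1.70 and 2.41% with Vehicle. Both genes had their widest range in Vehicle tumours, and for both it took in the ranges of both treated groups. Traj6 took 0.943, 1.43 and 2.23% with AC484, against 1.00, 1.30 and 2.04% with aPD-1 and 0, 1.23 and 2.91% with Vehicle. Traj11 took 0.478, 1.01 and 1.38% with AC484, against 0.530, 0.996 and 1.72% with aPD-1 and 0, 1.32 and 2.43% with Vehicle. The Vehicle median of Traj11 was the highest of the 3 groups, and the groups overlapped. Traj5 took 0.347, 0.624 and 0.950% with AC484, against 0.132, 0.540 and 1.14% with aPD-1 and 0, 0.632 and 2.78% with Vehicle. Traj2 took 0.217, 0.520 and 0.708% with AC484, against 0.310, 0.66 and 0.996% with aPD-1 and 0, 0.514 and 0.971% with Vehicle. These 2 genes gave a median of 2 and 1 distinct CDR3s per Vehicle tumour, so a single CDR3 moved their share strongly.

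**Figure D2:**
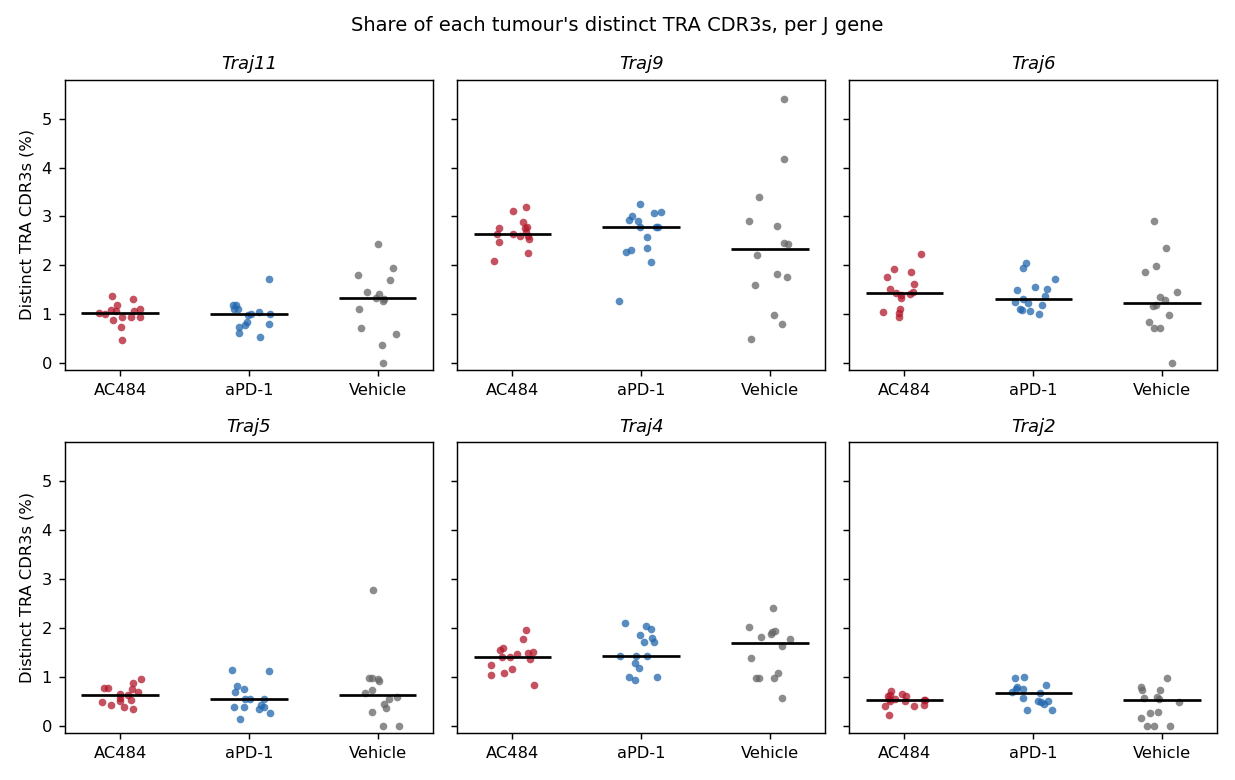
Percent of each tumour's distinct TRA CDR3s that end in the fixed residues of each gene, 1 point per tumour (15 AC484, 15 aPD-1, 14 Vehicle) with a line at the median. The groups overlap for every gene, and Vehicle tumours scatter most, up to 5.42% for Traj9.

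With AC484 against Vehicle, 0 of the 6 genes passed edgeR's quasi-likelihood test on distinct CDR3s (1 at an unadjusted p under 0.05, and 0 by DESeq2), against 4 of all 43 Traj genes (9.30%). Their median log2 fold change was 0.01, against 0.07 over all genes. Traj11 had the lowest value, -0.42 ± 0.18 (SE, adjusted p = 0.173), followed by Traj4 at -0.25 ± 0.17, and Traj9 had the highest at 0.20 ± 0.15. The sign of Traj9 turned in 3 alternatives, to -0.23 with equal TRA reads, -0.10 with the index primer set as a block and -0.05 with CDR3s of at least 2 reads. The 95% intervals ran from -0.77 to -0.07 for Traj11, from -0.08 to 0.48 for Traj9 and from -0.37 to 0.70 for Traj2, and the last 2 take in both signs. With the index primer set as a block Traj2 stood at 1.74 (adjusted p = 0.521), outside that interval. The 4 genes past the threshold were not among the 6. One of them was the neighbour Traj7, which lies between Traj9 and Traj6 and fell by 0.92 ± 0.12 (adjusted p = 2.95e-11). With the index primer set as a block, and with equal TRA reads, 0 of 43 genes passed, so the call of Traj7 was lost in both.

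With aPD-1 against Vehicle, 0 of the 6 genes passed (1 at an unadjusted p under 0.05, and 0 by DESeq2), against 1 of 43 (2.33%), again Traj7, and 0 of 43 passed with that block or with equal TRA reads. Traj11 stood at -0.43 ± 0.19 (adjusted p = 0.428) and Traj2 at 0.39 ± 0.28 (adjusted p = 0.617), or 2.32 with the block (adjusted p = 0.296). Both comparisons use the same Vehicle tumours, so the like value of Traj11 in them is not a second observation. With AC484 against aPD-1, the best measured comparison, 0 of 6 passed (0 at an unadjusted p under 0.05, and 0 by DESeq2), against 4 of 43 (9.30%). The log2 fold changes lay between -0.22 ± 0.16 for Traj2 and 0.12 ± 0.12 for Traj6. For Traj9 the value was -0.00080 with a 95% interval from -0.18 to 0.18. Both other measured genes of this end of the cluster, Traj12 and Traj7, passed in that comparison, at -0.33 ± 0.08 and -0.37 ± 0.09. Of the 43 genes 1 passed there with the index primer set as a block and 0 with equal TRA reads. Within index set 3 the 6 log2 fold changes of AC484 against aPD-1 ran from -0.60 (Traj2) to 0.21 (Traj5), and within set 2 those of aPD-1 against Vehicle ran from -0.54 (Traj5) to 2.26 (Traj2), with no call in either.

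Among the 14 upstream genes 0 passed with AC484 against Vehicle, 0 with aPD-1 against Vehicle and 1 with AC484 against aPD-1, which was higher. Among the 21 central genes the counts were 3 (1 higher, 2 lower), 0 and 1 (lower). The median log2 fold changes with AC484 against Vehicle were 0.21 upstream, 0.07 central and 0.01 in the 6 downstream genes.

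**Figure D3:**
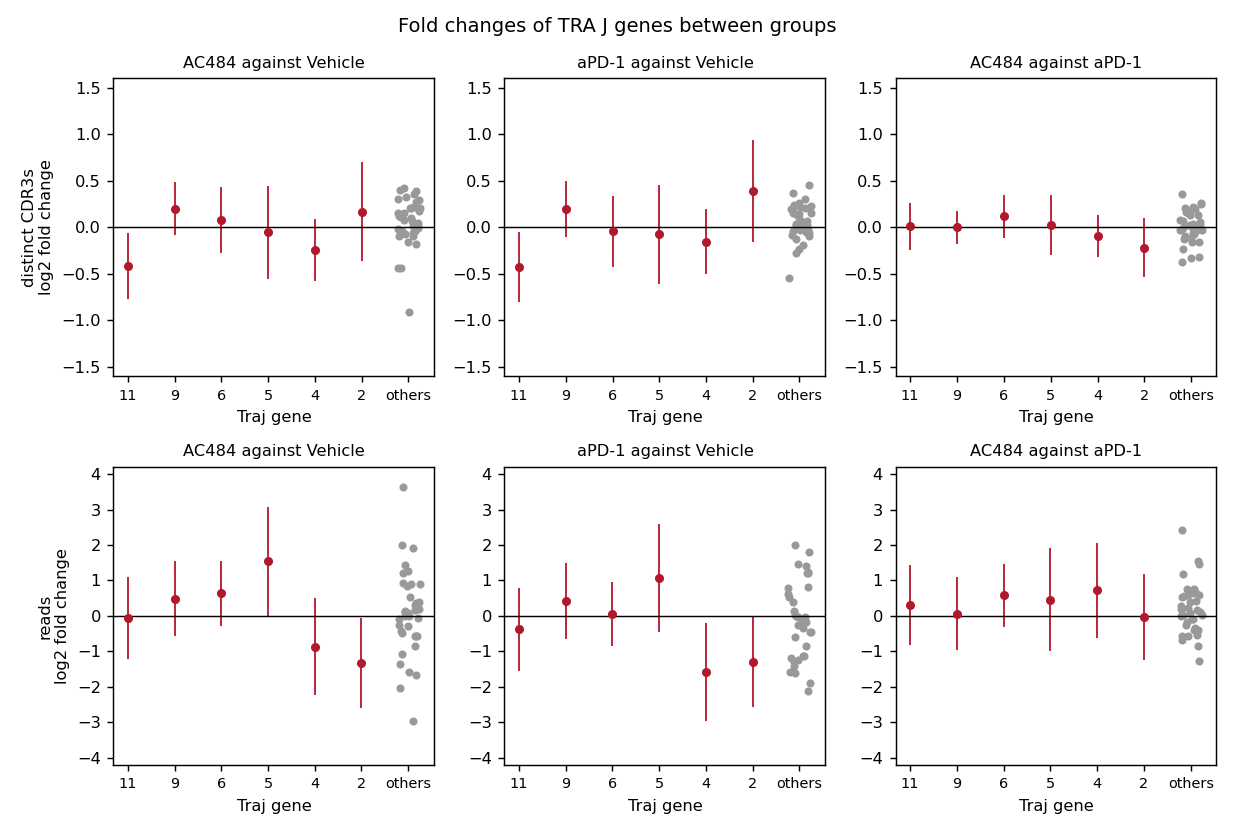
Log2 fold changes of distinct CDR3s (top) and reads (bottom) per Traj gene in the 3 comparisons. Red points are the 6 genes with 95% intervals, and grey points are the other 37 genes. All 6 genes stay within 0.43 of 0 for distinct CDR3s, while for reads the values run from -1.59 (Traj4, aPD-1 against Vehicle) to 1.54 (Traj5, AC484 against Vehicle).

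Reads, which weigh a gene by the size of its clones, varied far more between tumours than distinct CDR3s. The summed share of TRA reads was 2.06 to 15.5% with AC484 (median 6.82%), 2.07 to 15.95% with aPD-1 (median 4.11%) and 0.858 to 20.3% with Vehicle (median 3.92%). Traj9 took 0.431, 1.14 and 11.4% (lowest, median, highest) with AC484, against 0.416, 1.03 and 11.9% with aPD-1 and 0.0647, 1.41 and 6.53% with Vehicle. Traj4 took 0.168, 0.965 and 7.69% with AC484, against 0.150, 0.657 and 4.08% with aPD-1 and 0.0404, 0.675 and 18.5% with Vehicle. The highest tumour of each gene stood well above the median in every group, and the groups overlapped. Traj11 reached 6.71% in 1 AC484 tumour (median 0.444%), 4.26% in 1 aPD-1 tumour (median 0.412%) and 2.50% in 1 Vehicle tumour (median 0.363%). Traj6 reached 5.95% with AC484 (median 0.57%), 1.78% with aPD-1 (median 0.463%) and 1.82% with Vehicle (median 0.343%). Traj5 reached 6.56% with AC484 (median 0.204%), 6.78% with aPD-1 (median 0.145%) and 0.698% with Vehicle (median 0.175%). Traj2 had the lowest maximum of the 6 genes in both treated groups, though not in Vehicle tumours, with a highest value of 0.923% with AC484 (median 0.169%), 0.552% with aPD-1 (median 0.225%) and 1.63% with Vehicle (median 0.0776%). A gene was at 0 reads in 7 cases, all in Vehicle tumours, where a count of 0 allows a share of up to 0.0203% (Traj5, Vehicle 1) to 0.160% (Traj11, Traj6 and Traj2, Vehicle 5) of TRA reads.

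**Figure D4:**
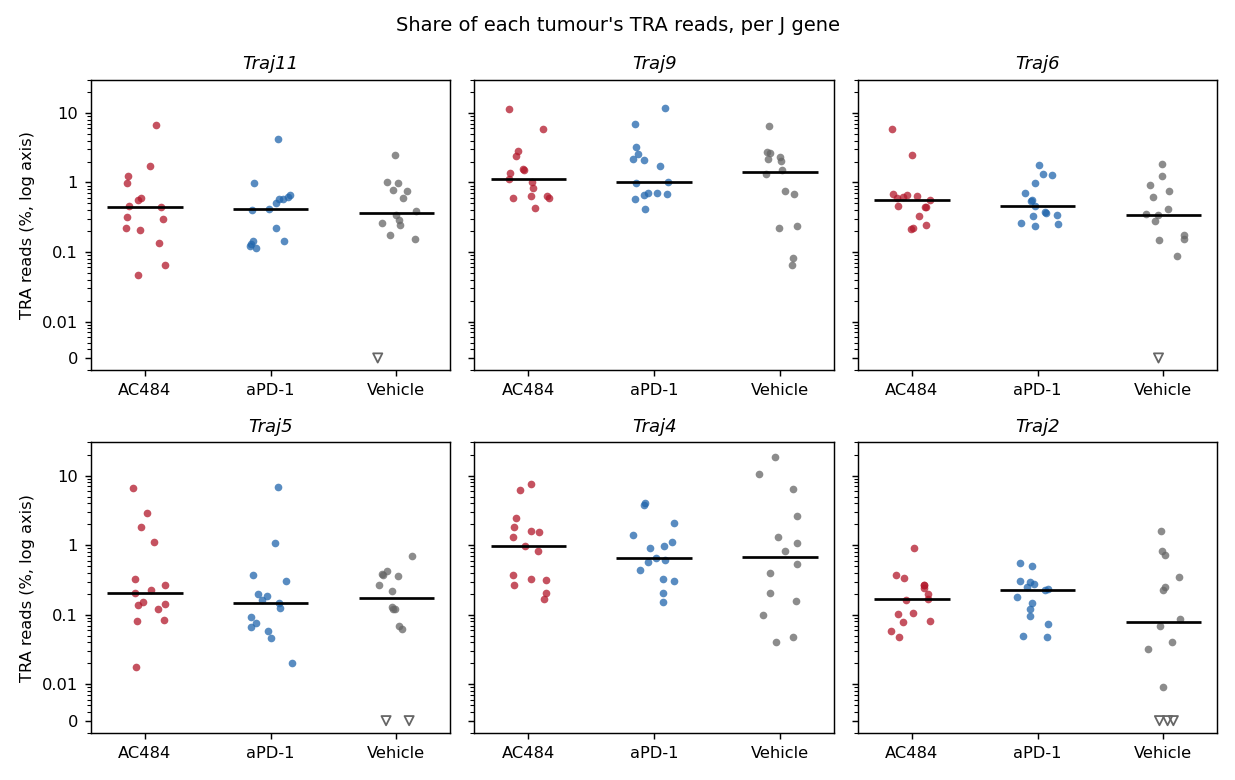
Percent of each tumour's TRA reads per gene on a log axis, 1 point per tumour with a line at the median, and open triangles at the bottom for tumours with 0 reads. Single tumours reach 18.5% (Traj4, Vehicle) and 11.9% (Traj9, aPD-1), far above the medians.

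With reads, 0 of the 6 genes passed edgeR's test in any comparison. With AC484 against Vehicle 6 of 43 genes passed (14.0%), and of the 6 genes 1 had an unadjusted p under 0.05 and 0 passed by DESeq2. Traj5 stood highest, at 1.54 ± 0.78 (SE, adjusted p = 0.170), and Traj2 lowest, at -1.33 ± 0.65 (adjusted p = 0.164). The sign of Traj2 was not stable, with values from -1.99 (without libraries under 3.5 nM) to 3.61 (index primer set as a block) over the alternatives and 0.21 by DESeq2. With aPD-1 against Vehicle 9 of 43 passed (20.9%), and of the 6 genes again 1 had an unadjusted p under 0.05 and 0 passed by DESeq2. That gene was Traj4, at -1.59 ± 0.71 (adjusted p = 0.103). With AC484 against aPD-1 2 of 43 passed (4.65%), with 0 of the 6 genes at an unadjusted p under 0.05 and 0 by DESeq2, and the 6 values lay between -0.03 ± 0.63 (Traj2) and 0.72 ± 0.68 (Traj4). The standard errors, with a median near 0.62, were more than 3 times those of distinct CDR3s. Within index set 2 the log2 fold change of Traj2 with aPD-1 against Vehicle was 4.23 (adjusted p = 0.0701), against -1.30 over all tumours. The 2 Vehicle tumours of that set held 0 and 1 Traj2 reads.

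The highest shares came from single CDR3s. In the lists that follow, lower case marks the residues before the germline match and capitals the residues that match the germline J ending. The CDR3 with the highest share of a tumour's TRA reads is shown for each gene, because these set the upper end of the read shares above.
Traj11: cavsSGYNKLTF
Traj9: calnSNMGYKLTF
Traj6: cspfsSGGNYKPTF
Traj5: calpGTQVVGQLTF
Traj4: camredmLSGSFNKLTF
Traj2: cvlsadTGGLSGKLTF
The Traj4 CDR3 made up 18.3% of the TRA reads of Vehicle 9, with 577 of its 578 reads there and 1 read in another Vehicle tumour. The Traj9 CDR3 made up 11.1% of the TRA reads of aPD-1 14, with 8864 of its 8971 reads there and at most 30 in each of 9 other tumours. The Traj5 CDR3 reached 6.71% in aPD-1 10 with 1247 reads and the Traj6 CDR3 5.70% in AC484 8 with 3073 reads. The Traj11 CDR3 reached 4.46% in AC484 5 with 4458 of its 4484 reads, and the Traj2 CDR3 only 1.63% in Vehicle 12 with 201 reads. In 5 of these 6 cases every tumour but the highest held the CDR3 at under 1% of its highest count, and whether such reads were carried between libraries was not tested.

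CDR3s with at least 1% of a tumour's TRA reads occurred 38 times over the 6 genes. Traj4 gave 13 of them (7 with AC484, 2 with aPD-1, 4 with Vehicle), Traj9 gave 10 (3, 4 and 3), Traj11 5 (3, 1 and 1), Traj5 5 (4, 1 and 0), Traj6 4 (2, 1 and 1) and Traj2 1, in a Vehicle tumour. Such CDR3s were not counted at the other Traj genes, so whether 38 is many or few cannot be said here, and the split by group was not tested. In a median AC484 tumour the largest CDR3 held 27.5% of the Traj9 reads and 46.6% of the Traj2 reads, against 25.1 and 40.6% with aPD-1 and 36.9 and 83.3% with Vehicle. With a median of 1 Traj2 CDR3, a Vehicle tumour could hardly show a lower value.

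Most CDR3s of these genes were found in 1 tumour. Of the 2983, 726 (24.3%) occurred in at least 2 tumours, against 26.6% for the central genes, 23.1% for the upstream genes and 32.8% for Traj12 and Traj7. The share was 29.2% at Traj9, 23.5% at Traj4 and Traj11, 23.0% at Traj6, 22.4% at Traj5 and 15.4% at Traj2, the lowest of all 43 genes. Of the 2983, 10 were found in 10 or more tumours, 4 at Traj9, 3 at Traj6 and 3 at Traj4, while Traj12 and Traj7 together had 58 such CDR3s among 1751. The upstream genes had 59 among 10063, the central genes 291 among 19634 and all 43 genes 418 among 34431. The CDR3s found in the most tumours are shown for each gene because they show how the widest shared ones are built. The residues before the match include those of the V gene.
Traj11: caanDSGYNKLTF, cavsDSGYNKLTF, cvlgDSGYNKLTF
Traj9: cavSNMGYKLTF, caaSNMGYKLTF, caasdMGYKLTF
Traj6: caaTSGGNYKPTF, cavTSGGNYKPTF, caasTSGGNYKPTF
Traj5: cavsmGTQVVGQLTF, caasGTQVVGQLTF, caapGTQVVGQLTF
Traj4: caasLSGSFNKLTF, cavsLSGSFNKLTF, cavSGSFNKLTF
Traj2: camregwTGGLSGKLTF, calNTGGLSGKLTF, cavNTGGLSGKLTF
Of these 18 CDR3s, 15 keep the whole germline ending, and 17 carry 3 to 5 residues before the match. Over all CDR3s of the 6 genes, 35.4% keep the whole ending. At most 4 residues stand before the match in 23.9% of them, and 5 in 34.7%. The 18 were picked by the number of tumours that hold them. The most widespread, cavSNMGYKLTF of Traj9, was found in 24 tumours (12 AC484, 9 aPD-1, 3 Vehicle) with 540 reads in all and at most 66 in one of them. caaSNMGYKLTF followed with 22 tumours (12 AC484, 9 aPD-1, 1 Vehicle) and 453 reads. Both are made of 3 residues and the full Traj9 ending, and each was spread over its tumours at low counts, with medians of 10.5 and 10 reads. At Traj6, caaTSGGNYKPTF was found in 12 tumours (7 AC484, 3 aPD-1, 2 Vehicle), at a median of 3 reads. At Traj4, caasLSGSFNKLTF was found in 11 (6 AC484, 5 aPD-1, 0 Vehicle), at a median of 4. At Traj5 and Traj11 the leading CDR3s were found in 9 tumours each. cavsmGTQVVGQLTF of Traj5 had 1785 of its 1828 reads in AC484 12 and at most 17 elsewhere. The Traj2 CDR3 camregwTGGLSGKLTF was an exception in length, with 7 residues before the match, and occurred in 9 tumours (6 AC484, 3 aPD-1, 0 Vehicle) with 134 reads. The next at Traj2 was in 5.

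Sharing fell with the number of residues before the germline match. Among CDR3s with at most 4 such residues 37.6% were in 2 or more tumours at Traj11, 47.2% at Traj9, 37.2% at Traj6, 35.7% at Traj5, 38.4% at Traj4 and 28.3% at Traj2. With 6 or more such residues the values, in the same order, were 9.59, 16.7, 12.3, 12.6, 13.2 and 9.32%. Over all other Traj genes they were 40.3% with at most 4 and 16% with 6 or more. Traj2 was lowest and Traj9 highest of the 6 in both classes. CDR3s with the full germline ending were shared more often than trimmed ones at each gene, from 22.7 against 10.3% at Traj2 to 35.5 against 27.4% at Traj9.

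**Figure D5:**
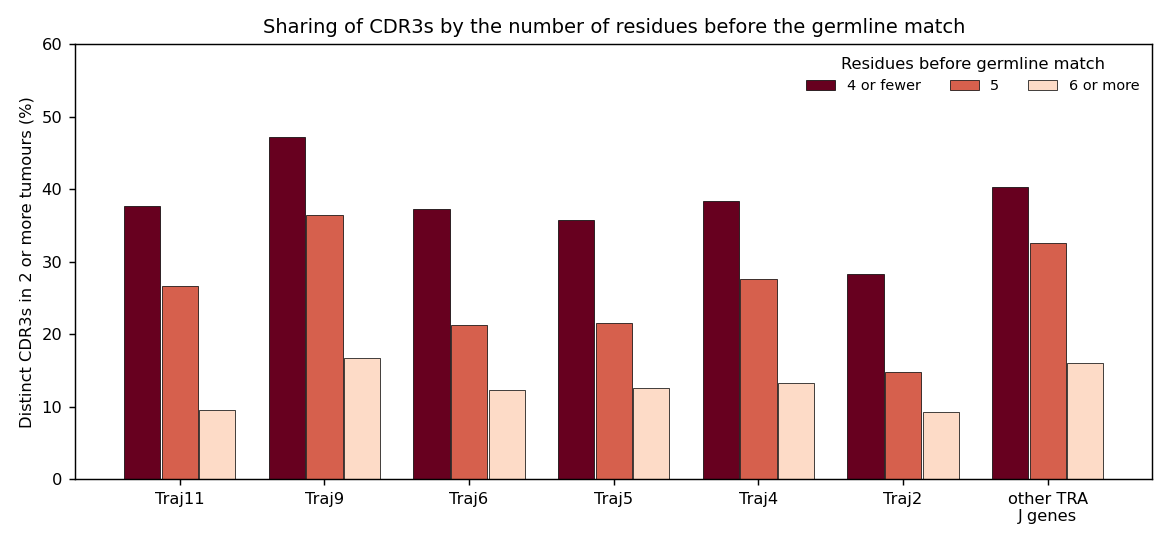
Percent of distinct CDR3s found in 2 or more of 44 tumours, by the number of residues before the germline match, for each of the 6 genes and for all other Traj genes. The bars fall from left to right within every gene, from 47.2 to 16.7% at Traj9 and from 28.3 to 9.32% at Traj2.

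Set against the other TRA CDR3s of the same tumour, 5 of the 6 genes differed in sharing (sign-flip permutation test over tumours, adjusted over 43 genes), but so did 33 of all 43 Traj genes (76.7%), so that being past the threshold does not mark these genes. A shared CDR3 counts in every tumour that holds it, so the values of tumours are not independent and these p-values may be too small. Traj2 stood apart in size. In 28 tumours with at least 5 Traj2 CDR3s, 27.9% ± 10.1 (SD) of them were found in another tumour, against 56.2% ± 2.99 of other TRA CDR3s, a difference of -28.3 points that was negative in all 28 (adjusted p = 3.31e-05), the lowest of 43 genes. Traj4 (-8.51 points, higher in 10 of 37 tumours, adjusted p = 0.000597), Traj6 (-7.84 points, 10 of 38, adjusted p = 0.00167) and Traj5 (-6.97 points, 8 of 27, adjusted p = 0.0136) were shared less than other TRA CDR3s, and Traj9 more (4.07 points, 26 of 39, adjusted p = 0.0478). Traj11 missed the threshold (-5.00 points, 14 of 36, adjusted p = 0.146). The value of Traj9 depended on the fixed ending and on depth. It was -0.24 points (adjusted p = 0.903) with the longest match, which adds its 139 shorter endings, and -4.72 points (adjusted p = 0.153) when every tumour was drawn to 1466 TRA reads. At that depth Traj4 alone passed (-19.6 points, adjusted p = 0.000267), and Traj5 and Traj2 had too few CDR3s to be tested. Across the 43 genes, those with more distinct CDR3s had the higher share in 2 or more tumours (Spearman rho = 0.76, across genes, a description), and Traj2 and Traj5 are the least diverse.

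Of the upstream genes, 11 of 14 were shared less and 1 more than other TRA CDR3s, and of the central genes 6 of 21 less and 8 more, while both Traj12 (9.90 points) and Traj7 (16.4 points) were shared more. The median difference was -7.41 points in the 6 genes, -7.39 upstream and -1.40 in the central genes.

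No gene of the 6 passed the test for a change in sharing with treatment. Traj9 CDR3s were shared at 58.2% ± 7.78 with AC484 (n = 15), 60.7% ± 9.33 with aPD-1 (n = 15) and 66.5% ± 19.5 with Vehicle (n = 9), and Traj4 CDR3s at 45.1% ± 9.27 (n = 15), 49.0% ± 17.2 (n = 15) and 54.6% ± 10.1 (n = 7). Traj2 was near 28% in both treated groups, at 27.6% ± 11.7 with AC484 (n = 14) and 28.3% ± 7.66 with aPD-1 (n = 12), and only 2 Vehicle tumours had 5 Traj2 CDR3s. In the permutation tests of group means 0 of 6 genes passed with AC484 against Vehicle (1 at an unadjusted p under 0.05), against 4 of 43 (9.30%), 0 with aPD-1 against Vehicle (0 unadjusted), against 0 of 43 (0%, 3 unadjusted), and 0 with AC484 against aPD-1 (0 unadjusted), against 1 of 43 (2.33%). The median difference of the 6 genes was -6.37, -3.63 and -2.96 points in that order, against -5.10, -1.65 and -3.19 over all genes. Traj4 with AC484 against Vehicle had the lowest unadjusted p (exact permutation test, p = 0.0441, adjusted p = 0.190, -9.42 points). With 14 against 2 tumours the Traj2 test with Vehicle could not give a p under 0.00833. Within index set 3, AC484 minus aPD-1 ran from -13.4 points at Traj6 to 1.46 points at Traj11, with no call.

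CDR3s seen under all 3 conditions numbered 36 at Traj9 (3.97% of its CDR3s), 17 at Traj11 (4.16%), 14 at Traj4 (2.42%), 8 at Traj6 (1.38%), 6 at Traj5 (2.45%) and 2 at Traj2 (0.752%), against 1130 of 31448 (3.59%) at the other Traj genes. The CDR3s common to AC484 and Vehicle tumours were 8.24% of the AC484 and 45.2% of the Vehicle CDR3s at Traj9, 11.2 and 47.0% at Traj11, and 3.03 and 20.8% at Traj2, against 8.40 and 44.6% over all other Traj genes. Those common to aPD-1 and Vehicle tumours were 14.2% of the aPD-1 and 47.0% of the Vehicle CDR3s at Traj9 and 4.90 and 20.8% at Traj2, against 11.9 and 35.0% over all other Traj genes. The AC484 group held more CDR3s at every gene, 631 at Traj9 against 379 with aPD-1 and 115 with Vehicle, so these shares follow the sizes of the lists too.

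The genes differed in CDR3 length. The mean over distinct CDR3s was 13.2 residues at Traj9, 13.8 at Traj11, 14.1 at Traj6, 14.3 at Traj5, 14.4 at Traj4 and 15.6 at Traj2, the longest of the 43 genes. At Traj2 40.2% of the CDR3s had 16 residues, where Traj9 had 1.98%. The germline ending itself has 11 residues at Traj2 and 9 at Traj9, of which the fixed endings required 9 and 7. The mean number of residues before the germline match differed little, from 5.06 (Traj6) to 5.41 (Traj9), with 5.32 at Traj2. No gene of the 43 passed in any of the 3 comparisons of length (0% each, with 7, 3 and 3 genes at an unadjusted p under 0.05 with AC484 against Vehicle, aPD-1 against Vehicle and AC484 against aPD-1, permutation test). Among the 6, Traj9 differed most, with a mean of 13.09 ± 0.195 residues with aPD-1 (n = 15), against 12.69 ± 0.422 with Vehicle (n = 9, exact permutation test, p = 0.00287, adjusted p = 0.123). With AC484 it was 12.92 ± 0.197 (n = 15), 0.23 residues above Vehicle (adjusted p = 0.444) and 0.17 below aPD-1 (adjusted p = 0.329). Without the 9 libraries under 3.5 nM, a limit set after the data were seen, the Traj9 difference between aPD-1 and Vehicle was the one call among the 6 genes (0.63 residues, adjusted p = 0.0217). It rested on Vehicle 2, 3, 4, 7 and 14 alone. The lowest means were those of Vehicle 2 (12 residues, 8 CDR3s) and Vehicle 3 (12.1 residues, 10 CDR3s). Within index set 2 the Traj9 difference was 0.43 residues (adjusted p = 0.50).

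The germline residue just before the fixed ending was kept in 86.5% of Traj2, 77.6% of Traj5, 74.7% of Traj6, 70.9% of Traj4, 62.3% of Traj11 and 60.1% of Traj9 CDR3s. It is the first residue of the germline ending at Traj11 and the second at the other 5 genes, so Traj11 is not comparable here. The whole ending was kept in 62.3% of Traj11 CDR3s, the highest share of the 43 genes. That rank is not on equal terms, since a Traj11 CDR3 was counted only with 8 of its 9 germline residues. Genes outside the 6 needed a match of only 4. The longest match gave Traj11 464 CDR3s, and the 55 with a shorter ending are not among the 409 used here. At the other 5 genes the whole ending was kept in 22.4% (Traj9) to 43.3% (Traj5). At Traj11, where the residue is aspartate, glycine stood there in 10.3% of CDR3s. The first 3 residues come from the V gene, and their spread was not tested. Starts in CAA made up 24.0 to 26.7% at the 6 genes, against 26.7% at the other Traj genes, starts in CAV 17.2 to 22.0% against 17.5%, starts in CAM 8.30 to 11.9% against 9.27% and starts in CAL 21.3 to 29.8% against 25.4%. All other starts made up 14.3% at Traj5 and 16.9% at Traj2, up to 25.1% at Traj6, against 21.1%. V genes themselves are not in the table.

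By the correlation of shares over the 44 tumours, the Traj gene most like Traj11 was Traj34 (Pearson r = 0.56), and the most like Traj5 was Traj42 (r = 0.65). Traj23 was most like Traj2 (r = 0.44), Traj57 most like Traj6 (r = 0.37), Traj13 most like Traj9 (r = 0.34) and Traj50 most like Traj4 (r = 0.30). None of the 6 was the most like gene of another, and without Vehicle 5, the tumour with the fewest CDR3s, the values were 0.46 for Traj11, 0.33 for Traj5, 0.32 for Traj2, 0.23 for Traj6, 0.22 for Traj9 and 0.32 for Traj4, the only one that was not lower. Each is the highest of 42 correlations and is given as a description.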

How the data were processed

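The authors made libraries of both receptor chains from 44 tumours (SMARTer Mouse TCR a/b Profiling Kit) and assembled amino acid clonotypes with MiXCR. The submitters' notes name mm10, and MiXCR's parameters are not given in the sources used here. The deposited table holds a read count per CDR3 and tumour, not normalized. As deposited, it also gives each clone as a fraction of its tumour's reads and, of other kind, the library concentration in nM, used only for 1 alternative. Totals differ between tumours, so the depth normalization that the study's methods describe is not in these counts.

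Chain and J gene were inferred by comparing the end of each CDR3 with the translated J genes of GRCm38 (46 TRA and 12 TRB), keeping the longest run of identical residues if it had at least 4. Of the entries 34.5% were TRA, and 2.04% were unassigned. The 6 genes described used the fixed endings instead, and 0 of their CDR3s matched another gene better. Distinct CDR3s and reads per Traj gene, for genes with at least 100 distinct CDR3s (all 43 with any), were compared with edgeR 4.0.16 (quasi-likelihood test, TMM factors), fitted on all 44 tumours in R 4.3.3, with Benjamini-Hochberg adjustment over the 43 genes of a comparison and a threshold of 0.05. An interval is the value ± 1.96 SE. Sharing (percent of a tumour's distinct CDR3s of a gene found in at least 1 other tumour) and mean length were compared in tumours with at least 5 CDR3s of the gene by two-sided permutation tests (100000 resamples, smallest p 1e-05, exact where a group held under 10 tumours), and sharing against other TRA CDR3s by sign flips over tumours. The tests were tried on simulated data. On counts simulated like distinct CDR3s, AC484 against Vehicle, edgeR called 69.0% of genes changed 1.5-fold and 100% of those changed 3-fold. On simulated reads it called 1.00% and 38.0%. The changed genes were drawn from all 43, which averaged 801 distinct CDR3s per gene, against 497 for the 6. Index primer sets were not simulated, so these rates may be too high for the 6 genes. Alternatives were DESeq2 1.42.0, other scaling, blocks, endings, filters, depths and tumour sets. No source says that tumours of a group came from separate experiments, so p-values measure the spread between these tumours. For sharing, the value of a tumour also depends on the other tumours, so its p-values may be too small. The named genes are the 6, the gene most like each, and the neighbours Traj12, Traj13 and Traj7, and the named CDR3s are, per gene, the 3 in most tumours and the 1 with the highest share of a tumour's TRA reads. The members and lists were chosen with earlier results of these data known.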

Additional observations from a re-analysis of the deposited data

How the results depend on the processing

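No member gene was called by distinct CDR3s or by reads in any comparison under 9 to 12 alternatives each, or with each of the 44 tumours left out in turn, where the number called was 0 to 0. The same held for sharing between groups under 8 or 9 alternatives. The replicate block, with the tumour number as a block, gave 0 member genes called by distinct CDR3s, reads, sharing and CDR3 length in each comparison. The numbers do not pair the tumours, since of 43 same-numbered pairs 9 correlated above 0.1 by distinct CDR3s and 13 by reads, and 4 and 1 of 44 tumours correlated best with their own number. For CDR3 length, 1 gene (Traj9) was called with aPD-1 against Vehicle without the libraries under 3.5 nM. Of the sharing values against other TRA CDR3s, 5 genes passed, and 1 of the 4 that could be tested passed with equal TRA reads, where fewer CDR3s per tumour remain. Traj9 changed sign there, at -4.72 points, and with the longest match, at -0.24 points, and it missed the threshold with CDR3s of at least 2 reads. Traj11 passed with the longest match (-8.14 points). The cause was not tested. Calls over all 43 genes moved more. With the index primer set as a block, distinct CDR3s gave 0 calls (AC484 against Vehicle), 0 (aPD-1 against Vehicle) and 1 (AC484 against aPD-1), where the main test gave 4, 1 and 4, and with equal TRA reads 0 in each. Reads gave 1, 1 and 0 calls with the index block and 1, 0 and 0 with the replicate block, where the main test gave 6, 9 and 2, and 5, 0 and 0 without TMM factors. By reads, AC484 against aPD-1 gave 0 calls with the longest match, with carry-over removed, without libraries under 3.5 nM and within set 3, and aPD-1 against Vehicle gave 1 within set 2. By distinct CDR3s, aPD-1 against Vehicle gave 0 with carry-over removed and within set 2. Of 2238 values by gene and alternative that did not pass in the main setting, 2236 still did not pass, and 176 had the other sign. Leaving out the filter on genes changed nothing, since all 43 genes with any CDR3 passed it. Vehicle tumours with a median of 1 to 9 distinct CDR3s per gene limit every comparison with them.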
